A study of Mus musculus with 4 samples.

Results

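The Notch genes described here were the receptors Notch1, Notch2 and Notch3, the ligands Jag1, Jag2, Dll1 and Dll4, and the targets Hes1, Hey1 and Hey2. A RUNX1 peak was counted for a gene when the gene's transcription start site (TSS) was the nearest one to the edge of the peak among curated RefSeq transcripts on mm10, or when the peak lay in the gene body. By this rule 8 of the 10494 RUNX1 peaks, or 0.0762%, belonged to these 10 of 26180 genes. RUNX1 binding was mapped by chromatin immunoprecipitation and sequencing (ChIP-seq) in ovaries of CD1 mouse embryos at E14.5, freed of the mesonephros and pooled, with 80 to 100 ovaries per ChIP by the labels (the paper's methods give a larger number). There were 2 RUNX1 ChIP samples and 2 input samples, the latter with no antibody, and both kinds came from the same strain, stage and tissue, for which the labels give no knockout or treatment. The authors merged the 2 RUNX1 replicates and called peaks on the merged reads against input. The list therefore holds a single value per peak, with no error between replicates and no count of reads, so the depth behind a peak is unknown and no difference between peaks was tested. Each peak was 300 bp wide and carried a fold, the ratio of RUNX1 ChIP signal over background given by the peak caller, and that caller's p-value. Folds in the list began at 4.01.

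Notch is a receptor pathway between touching cells. A ligand of the Jagged or Delta-like family on the surface of a cell binds a Notch receptor on its neighbour, the receptor is cut first by an ADAM protease and then by γ-secretase, and its freed intracellular domain enters the nucleus, where it joins the DNA-binding protein RBPJ and a Mastermind coactivator. Targets switched on in this way include the HES and HEY families, which are themselves repressors. In the mouse ovary, Jagged ligands of germ cells and NOTCH2 of granulosa cells are known for their part in the assembly of follicles, and in blood vessels Dll4, Notch1, Hey1 and Hey2 belong to arterial differentiation.

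Of the 10 genes, 7 had a RUNX1 peak: 1 of 3 receptors (Notch2), 3 of 4 ligands (Jag1, Dll1 and Dll4) and 3 of 3 targets (Hes1, Hey1 and Hey2). By the same rule 40.8% of the 21000 protein-coding genes and 36.6% of all 26180 curated genes had at least 1 peak. Hey2 had 2 peaks and the other 6 genes had 1 each, whereas Notch1, Notch3 and Jag2 had none. The highest fold, 32.21, belonged to a peak upstream of Hes1. The other peaks ran from 12.96 at Jag1 down to 4.28 at Dll4.

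Because a peak is a stretch of DNA, peaks on which the description of sites turns are printed first. The following 3 peaks are given in full on the forward strand of mm10. Capitals mark the RUNX core, TGTGGT or TGCGGT on either strand (ACCGCA is TGCGGT read from the opposite strand), in the peaks of Hey2 and Dll4. Beside the Hes1 peak, these are the only peaks of Notch genes that held it. In the Jag1 peak, which held no RUNX core, capitals mark the core of the site bound by RBPJ, TGGGAA, or TTCCCA from the opposite strand.
Hey2 upstream, chr10:30844403-30844702: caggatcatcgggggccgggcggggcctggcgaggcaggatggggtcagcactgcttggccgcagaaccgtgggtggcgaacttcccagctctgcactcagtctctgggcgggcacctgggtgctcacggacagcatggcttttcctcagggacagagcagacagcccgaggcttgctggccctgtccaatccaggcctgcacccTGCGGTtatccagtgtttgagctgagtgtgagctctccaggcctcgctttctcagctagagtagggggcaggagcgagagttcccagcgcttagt
Dll4, chr2:119322550-119322849: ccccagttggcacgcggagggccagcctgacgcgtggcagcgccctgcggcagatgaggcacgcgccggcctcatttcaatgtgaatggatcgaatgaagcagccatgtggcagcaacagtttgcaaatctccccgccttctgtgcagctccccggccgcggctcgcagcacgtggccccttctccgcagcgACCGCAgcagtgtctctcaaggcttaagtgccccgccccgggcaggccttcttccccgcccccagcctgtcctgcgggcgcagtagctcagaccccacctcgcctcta
Jag1, chr2:137117197-137117496: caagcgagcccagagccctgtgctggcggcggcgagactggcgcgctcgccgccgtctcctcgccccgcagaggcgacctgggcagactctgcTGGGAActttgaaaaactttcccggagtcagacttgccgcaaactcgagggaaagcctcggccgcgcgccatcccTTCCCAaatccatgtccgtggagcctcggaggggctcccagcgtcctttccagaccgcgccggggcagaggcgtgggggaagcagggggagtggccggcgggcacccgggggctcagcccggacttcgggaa

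A shorter stretch is given for the other Hey2 peak, because a longer form of the RBPJ site, TGTGGGAA or CGTGGGAA, lay across the start of the gene there. It is read on the minus strand, along the gene, with the longer site in capitals.
Hey2 start, chr10:30842770-30842799: ctgggctgcagCGTGGGAAagaacctccag

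The fold of the 8 peaks had a median of 6.08, against 6.41 over the 10490 peaks on assembled chromosomes, whose quartiles were 5.02 and 8.89. Of the 8 peaks, 2 (Hes1 and Jag1) were above the upper quartile, 3 (Dll4, the Hey2 peak at the TSS and Dll1) were under the lower quartile, and the rest lay between. In total 4 peaks were above the median of the list. A fold of 8 or more was reached by 3 peaks, those of Notch2, Jag1 and Hes1, as by 32.1% of all peaks. The peaks of Notch genes were thus spread over the range of the list, with Hes1 near its top.

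**Figure D1:**
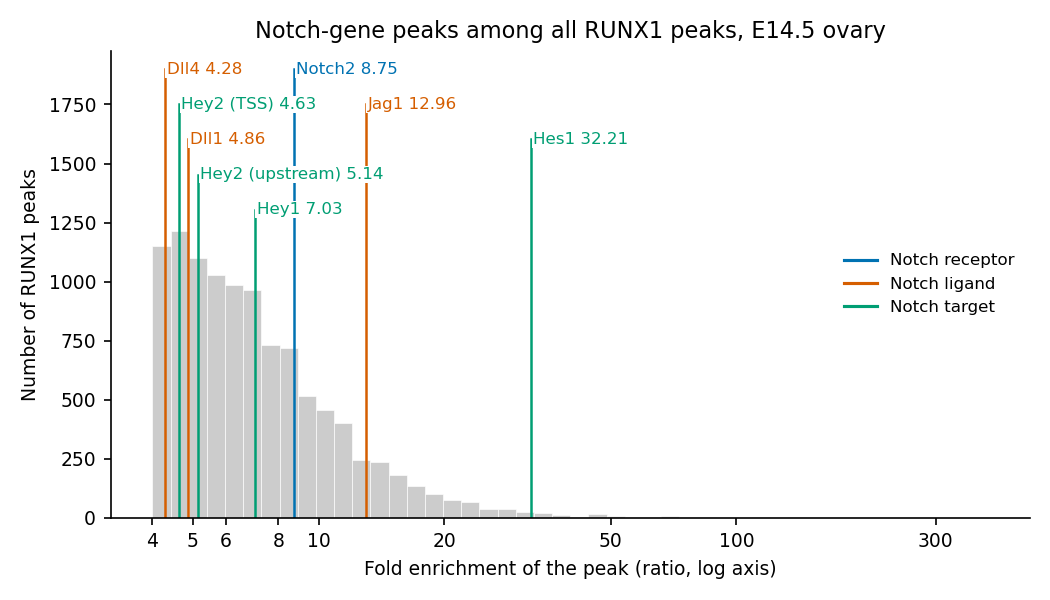
Histogram of the fold of all RUNX1 peaks (x axis, ratio on a log scale; y axis, number of peaks), with a line for each of the 8 peaks of Notch genes, coloured by role. The Hes1 peak stood at 32.21, Jag1 at 12.96 and Notch2 at 8.75, and the remaining 5 peaks lay between 4.28 and 7.03.

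Among the receptors, Notch2 carried the only peak. It covered the TSS of the gene, which spans chr3:98013538-98150367 on the plus strand in 34 exons, with 144 bp upstream of the TSS and 156 bp in the 5′ untranslated part of exon 1 (chr3:98013394-98013693). Its fold of 8.75, with a p-value of 6.44e-31, was higher than that of 74% of all peaks. No other RUNX1 peak lay within the gene, and the next one on the chromosome was 112037 bp away. The peak held 75.7% G and C bases and neither a RUNX core nor an RBPJ core.

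No peak was assigned to Notch1 or Notch3. Notch1, a receptor used in blood and vessel development among other tissues, spans chr2:26457902-26503822 on the minus strand, and its nearest peak, of fold 4.32, lay 58604 bp from its TSS and 12684 bp past its end, with Sec16a as the nearest gene. Notch3, a receptor best known in the smooth muscle of vessels, spans chr17:32120820-32166890 on the minus strand. Both genes were clear of peaks over their whole length.

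Among the ligands, Jag1 had a peak from the upper part of the list and Dll1 and Dll4 from the lower. Jag1 (chr2:137081451-137116520, minus strand, 26 exons) had the second highest fold among the Notch genes, 12.96, with a p-value of 8.90e-27. Its peak ended 677 bp upstream of the TSS. It was isolated, since the next peak was 225765 bp away and a single other peak, of fold 5.09, lay within 1 Mb. Of all peaks, 89.8% had a lower fold.

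Dll1 (chr17:15367354-15376932, minus strand, 12 exons) has 2 curated transcripts. Its peak (chr17:15376233-15376532) lay in the first intron of the transcript with the nearer start, 400 bp from that start. The peak was also upstream of a second start, which lies within chr17:15375774-15376073. The fold of the peak was 4.86, with a p-value of 3.43e-16, and 21.4% of all peaks were lower. The Dll4 peak, 2935 bp upstream of the TSS of Dll4 (chr2:119325784-119335666, plus strand, 11 exons), had a fold of 4.28 and a p-value of 7.50e-13, the lowest fold of the 8, and only 7.15% of all peaks were lower. The sequence under it also belongs to an intron of Gm14207, a long noncoding RNA gene transcribed from the opposite strand (chr2:119321199-119326197), and 0 of its bases were in exons of that gene.

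The ligand gene without a peak was Jag2 (chr12:112908590-112929495, minus strand, 26 exons). The nearest peak, of fold 4.69, lay 20829 bp upstream of its TSS but was only 8182 bp from the TSS of Nudt14, to which it was assigned.

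All 3 target genes had a peak close to the TSS, upstream of it or across the first exon. Hes1, a repressor that holds back differentiation in many progenitor cells, spans chr16:30065357-30067796 on the plus strand in 4 exons. Its peak ended 1488 bp upstream of the TSS and had a fold of 32.21 with a p-value of 1.14e-96. This was 5.02 times the median fold of all peaks and 2.49 times that of the Jag1 peak. By fold it ranked 87 of 10490 peaks, 2 of the 350 on chromosome 16 and 8 of the 848 peaks lying 1 to 10 kb from a TSS. A fold of 30 or more was reached by 1.0% of all peaks. Ordered by their strongest peak, Hes1 was number 99 of the 9577 genes with a peak, far ahead of Jag1 at 1123, Notch2 at 2837 and Hey1 at 4375. The other genes stood at 7219 (Hey2), 7752 (Dll1) and 9007 (Dll4).

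Hey1 and Hey2 encode related repressors that act downstream of Notch in vessels and the heart. The Hey1 peak (chr3:8666660-8666959) began 79 bp inside the gene (chr3:8663359-8667038, minus strand, 5 exons), covering 89 bp of 5′ untranslated and 89 bp of coding sequence in exon 1 and 122 bp of intron 1. Its fold of 7.03, with a p-value of 6.86e-20, was above that of 58% of peaks, the middle of the list. Neither core was found in it.

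Hey2 (chr10:30832359-30842783, minus strand, 5 exons) was the only gene with a pair of peaks, and neither was strong. The peak at the TSS (chr10:30842510-30842809), with 26 bp upstream of it and the rest over exon 1 and intron 1, had a fold of 4.63 and a p-value of 7.53e-10. The second, 1620 bp upstream, had a fold of 5.14 and a p-value of 9.05e-11. The stretch between the pair was 1593 bp long. Of all peaks, 14.8% were lower than the first and 27.5% lower than the second, so both came from the lower part of the list.

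**Figure D2:**
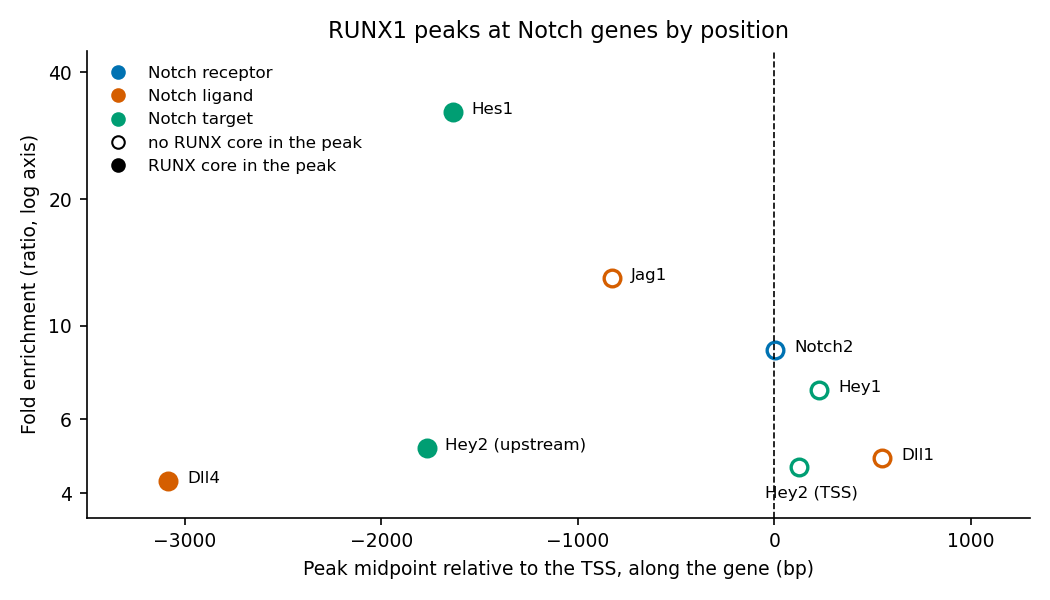
Fold of each peak of a Notch gene (y axis, ratio on a log scale) against the position of its midpoint relative to the TSS along the gene (x axis, bp; negative is upstream). Colours give the role and filled points held a RUNX core. For Dll1, which has 2 curated transcripts, the start nearer to the peak was used. The filled points, Dll4, Hey2 upstream and Hes1, were 1637.5 to 3084.5 bp upstream, whereas the 5 open points lay within 1 kb of the TSS.

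In position, 5 of the 8 peaks were under 1 kb from the nearest TSS (76.0% of all peaks) and 3 were 1 to 10 kb away (8.08%), while none of the 8 was more than 10 kb away (15.9%). A TSS was covered by 2 peaks, those of Notch2 and Hey2, and by 34.2% of all peaks. The 3 peaks between 1 and 10 kb were those of Hes1, Dll4 and the upstream peak of Hey2, and they held both the highest and the lowest fold of the Notch genes. Over the whole list the median fold was 6.48 in either distance class.

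The RUNX core was present in 3 of the 8 peaks and in 39.9% of all peaks. It was found in 22.6% of the windows of the same width lying 1 kb to either side of a peak and free of peaks, and in 22.4% of the RefSeq promoters, windows from 250 bases before to 50 after a gene start. The 3 peaks with the core were exactly the 3 lying 1 to 10 kb from a TSS, a class in which 51.4% of all peaks held it. None of the 5 peaks under 1 kb from a TSS held a core, against 34.2% of such peaks in the list, and the share among peaks more than 10 kb away was 61.1%. The absence of a match says only that these letters are not in the 300 bp of the peak.

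All 4 cores in these peaks were TGCGGT, and TGTGGT was found in 0 of the 8. In the whole list TGCGGT was present in 23.7% of peaks and TGTGGT in 19.5%, and 2747 of the 5193 cores were of the TGCGGT form. In the flanking windows the shares were 3.91% for TGCGGT and 19.4% for TGTGGT, and in the promoters 6.45% and 16.8%. TGCGGT holds a CpG, and these peaks were rich in G and C bases, at 64 to 77% with a median of 67.5, as was the list at 66.3. The part of base composition in the form of the core was not tested. A longer RUNX site, TGTGGTT or TGCGGTT, was present in the Hes1 peak and in the upstream Hey2 peak, 2 of 8, and in 15.2% of all peaks.

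The Hes1 peak was the only Notch peak with 2 cores, as were 8.26% of all peaks. Its cores lay on opposite strands, 50 bases apart, with their centres at -17 and +33 bp from the peak's midpoint along the forward strand. With 77% G and C bases and 40 CpG, it was the most G and C rich of the 8 peaks. In the upstream Hey2 peak, with 64% and 14 CpG the least rich, the core lay at chr10:30844608-30844613 on the plus strand, 58 bp from the midpoint.

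RBPJ binding was not measured, and only its letters were searched. The RBPJ core, a short sequence that RBPJ of the Notch nuclear complex can bind, was present in 4 of the 8 peaks, 6 times in all. It was found in 20.0% of all peaks, 26.6% of flanking windows and 25.6% of promoters, so the share over all peaks was under that of the windows around them, and no test was run. The 4 peaks were those of Jag1 (2 cores), Hes1 (1), Hey2 at the TSS (1) and Hey2 upstream (2), that is, 2 of the 5 peaks under 1 kb from a TSS (18.1% in that class of the list) and 2 of the 3 at 1 to 10 kb (23.7%, and 27.4% in the class more than 10 kb away). RUNX and RBPJ cores stood together in the Hes1 peak and the upstream Hey2 peak, as in 8.47% of all peaks. In the Hes1 peak, the RBPJ core lay at -95 bp from the midpoint.

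The longer RBPJ site was present in 1 of the 8 peaks, the Hey2 peak at the TSS, and in 2.68% of all peaks, 2.40% of flanking windows and 2.57% of promoters. This site, CGTGGGAA at chr10:30842781-30842788, is the one in the short sequence above, and 5 of its 8 bases lay upstream of the TSS. A second copy, outside the peak at chr10:30842983-30842990, began 207 bases before the gene start on the opposite strand, so the Hey2 promoter held 2 longer RBPJ sites. It is printed along the gene on the minus strand, where the site reads in reverse.
Hey2 second site, chr10:30842972-30843001: gcgcggtggcaTTCCCACGcctctgccaac

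**Figure D3:**
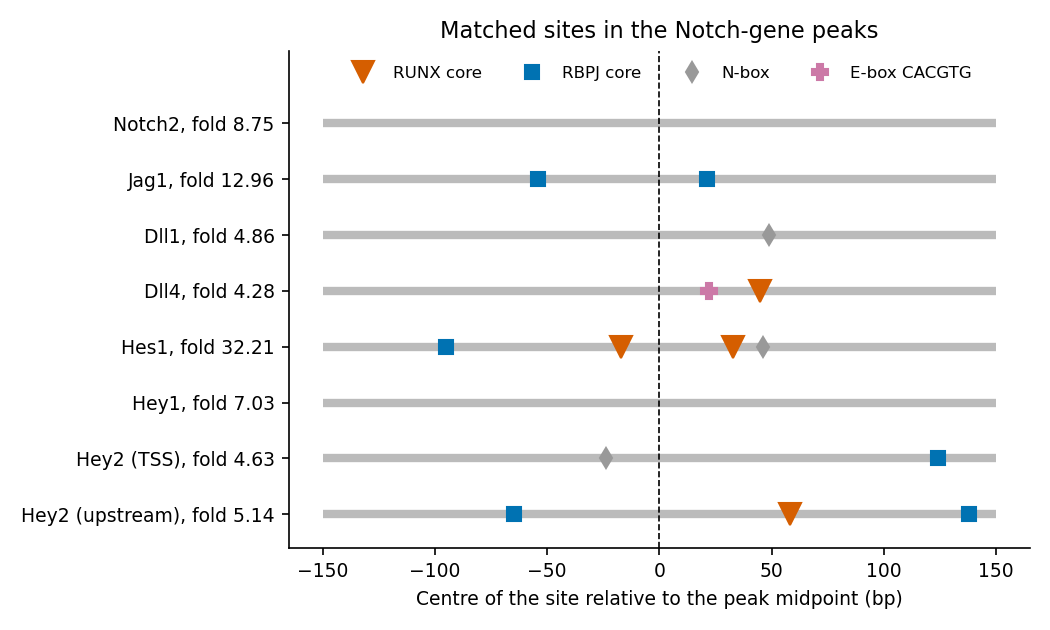
Positions of the RUNX core, the RBPJ core, the N-box and the E-box CACGTG in each of the 8 peaks (x axis, distance from the peak midpoint in bp, forward strand of mm10; 1 row per peak with its fold). RUNX cores were present in 3 rows (Hes1, Hey2 upstream and Dll4) and RBPJ cores in 4 (Jag1, Hes1 and both Hey2 peaks), and the rows of Notch2 and Hey1 held no site.

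Sites for other factors were counted in the same way. HES and HEY proteins bind the E-box CACGTG and the N-box CACNAG. The E-box was found in 1 of the 8 peaks, that of Dll4 (8.90% of all peaks), and the N-box in 3, those of Dll1, Hes1 and Hey2 at the TSS (43.1%). None of the 8 held the forkhead site TGTTTAC or TATTTAC (3.24% of all peaks), the ETS site CCGGAAGT (4.66%), the GATA site AGATAA or TGATAA (8.33%), or the NR5A site CAAGGTCA or CAAGGCCA (4.42%). Beside shares this low over the list, nothing particular to the Notch genes can be read from counts of 0 among 8 peaks.

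Beyond the assigned peaks, 7 peaks lay within 50 kb of the TSS of a Notch gene and were assigned to another gene. The closest case was a peak of fold 4.81 with a RUNX core at chr2:119337865-119338164, which began 2199 bp past the end of Dll4 and lay 12081 bp from the Dll4 TSS and 11668 bp from that of Gm14207. It went to Gm14207 by a margin of 413 bp. Near Hes1, a peak of fold 4.76 with 2 RUNX cores lay 44642 bp upstream in the body of the long noncoding RNA gene 4632428C04Rik. Downstream of Hey2, 3 peaks were nearest to Ncoa7, a nuclear receptor coactivator gene, 2 of them with a fold of 8.64 and the other with 5.55, higher than either peak at Hey2 itself. The last 2 were the Nudt14 peak upstream of Jag2 and a peak of fold 5.32 at the TSS of Fam120b, 18988 bp from Dll1.

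**Figure D4:**
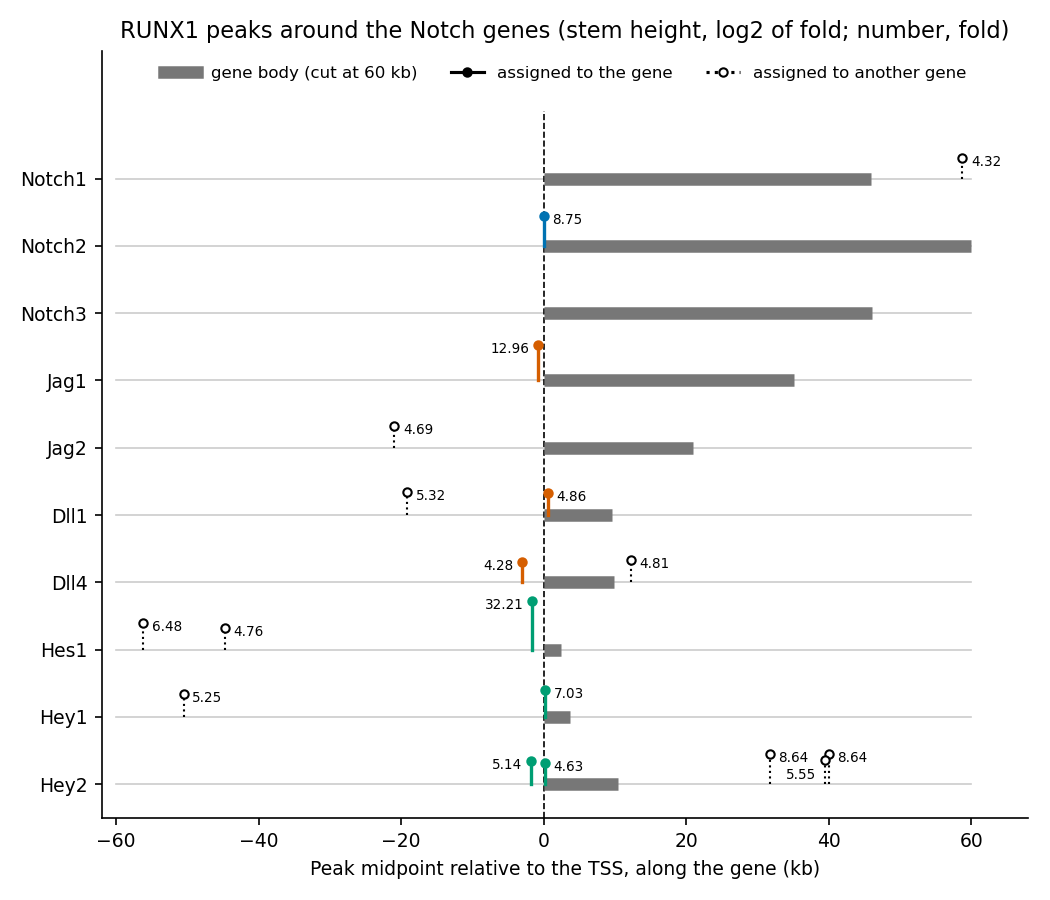
RUNX1 peaks within 60 kb of the TSS of each Notch gene (x axis, kb from the TSS along the gene; bar, gene body; stem height, log2 of the fold, whose value is printed beside it). Filled stems were assigned to the gene and dotted stems to another gene. Assigned peaks all lay close to the TSS, and Notch3 had no peak in the window.

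The presence of a peak was also set beside the share of G and C bases in the promoter, with which it moved over the genome. Of 16853 protein-coding genes with a promoter in the RefSeq table (80.3%), ranked by the G and C content of the promoter and cut into 4 groups of near equal size, 8.85% had a peak in the lowest group, then 31.9%, 53.9% and 69.2% in the highest. Promoters of 8 Notch genes were in the table, and all but those of Jag1, Dll1 and Dll4 were in the highest group, at 66% or more. The 3 genes without a peak, Notch1 (68.3%), Notch3 (70%) and Jag2 (86%), were all among these 5, whereas Jag1, with 55.7%, had a peak. None of the 8 promoters held a RUNX core. The part of base composition in the presence of the peaks was not tested.

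The other genes of the pathway were counted by role. Of 62 such genes, 37 had a peak (59.7%, beside 40.8% of protein-coding genes), with a median fold of 7.03 over 53 peaks. The base composition of their promoters was not taken into account, and the difference between these shares was not tested. In the nuclear complex, 6 of 7 genes had a peak, with the coactivator Crebbp at 17.45, Rbpj itself at 12.96 over its TSS, and Maml3, a Mastermind gene, at 12.34. Maml2 had none.

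The corepressors, which silence RBPJ targets when Notch is off, were all bound, 13 of 13. The highest fold was 87.01 for a peak 32 bp from the TSS of Kdm5a, a histone demethylase gene, although the TSS of Ccdc77 was nearer. Spen, a corepressor that binds RBPJ, had a peak of fold 35.54 and Tle1, a Groucho family gene, one of 15.04. Both Kdm5a and Spen thus had a peak of higher fold than Hes1.

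Of the targets other than Hes1, Hey1 and Hey2, 2 of 9 had a peak. Hes7, of the somite clock, had a peak of fold 25.92 lying 9405 bp upstream, and Hes5 one of 4.68, while Hes2 and Hes3 had none. Among the remaining receptor and ligands, 2 of 5 had a peak. Dlk1, a noncanonical ligand, had one of 43.50 at 14657 bp upstream with a RUNX core, and Notch4 one of 4.36 in its body that was nearer to the TSS of Gpsm3. Dll3 and Dlk2 had none.

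Of the genes for cleavage of the receptor, 5 of 10 had a peak, led by the proteases Adam17 (9.54) and Adam10 (7.74) and the γ-secretase subunit Ncstn (8.33), whereas Aph1a had none. Glycosylation of the receptor was represented by 1 of 5 genes, Poglut1 (5.74), and neither Pofut1 nor Lfng had a peak. In ubiquitination and endocytosis, 8 of 13 genes had a peak, led by Numb, an inhibitor of Notch (17.28), Nedd4 (12.96) and Dtx4 (11.85), and Numbl and Dtx2 had none.

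**Figure D5:**
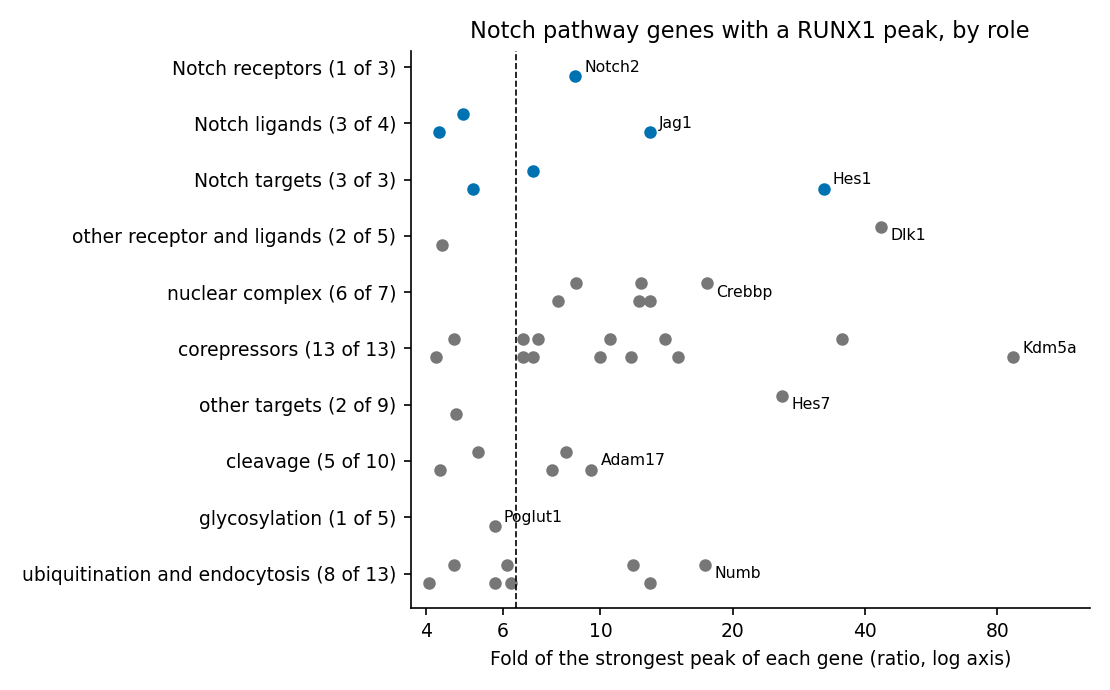
Fold of the strongest peak of each gene with a peak (x axis, ratio on a log scale), for the 10 Notch genes (blue) and the wider pathway genes (grey), by role, with the number of genes with a peak among those listed. The dashed line is the median of all peaks, 6.41. The corepressors had peaks at 13 of 13 genes, and the highest points were Kdm5a at 87.01, Dlk1 at 43.50, Spen at 35.54 and Hes1 at 32.21.

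The ovary holds germ cells, vessels, blood and stroma beside the pre-granulosa cells, and the ovaries were used whole. From the peak list alone, which cells carried RUNX1 at a Notch gene cannot be told apart. In the paper, a Runx1 reporter was seen in FOXL2-positive pre-granulosa cells at E14.5, and at an earlier stage it was absent from germ cells. The paper describes the expression of RUNX1 and FOXL2 as fully overlapping at E14.5. The list measures binding and not RNA, so marker genes could only be counted for peaks. A peak was found at 5 of 8 pre-granulosa markers (Foxl2 at 9.05, Runx1 at 11.11, Fst at 35.17, Kitl at 4.11 and Lgr5 at 9.26), 1 of 7 germ cell markers (Kit at 17.12), 2 of 5 Sertoli cell markers (Amh at 4.86 and Dmrt1 at 9.02), 2 of 7 endothelial markers (Kdr at 4.63 and Sox17 at 6.79), 2 of 6 blood markers (Ptprc at 12.26 and Spi1 at 12.03) and 4 of 4 stromal markers (Nr2f2 at 11.11, Pdgfra at 9.81, Tcf21 at 7.10 and Col1a1 at 4.32). These peaks were not all at gene starts. Both blood marker peaks lay far inside the gene, that of Ptprc 38291 bp and that of Spi1 18407 bp from the TSS. For the Spi1 peak the TSS of Mybpc3 was nearer. Over the 37 markers 16 had a peak (43.2%), near the 40.8% of all protein-coding genes. The part of any of these cells in the peaks of Notch genes was not tested.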

How the data were processed

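RUNX1 ChIP-seq was carried out on pooled E14.5 ovaries in 2 RUNX1 ChIP and 2 input samples, grouped by the sample titles. Per the paper's methods, the authors filtered single-end reads on base quality, mapped them to mm10 at unique positions, which leaves out repeats, removed duplicates, merged the RUNX1 replicates, called peaks against input, gave every peak a width of 300 bp about its centre and required enrichment over both input and the surrounding signal. Tools listed in the submitters' processing notes were HOMER 4.9, Bowtie 1.2, bedtools 2.24.0 and Picard 1.110. The deposited list gives, per peak, a fold, which is a ratio to background, and a p-value (2.44e-06 at most), used here to describe and filter peaks. No reads per peak are given.

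Coordinates are on mm10 (GRCm38), counted from 1, and sequences were read from the RefSeq GRCm38 genome. Distances were taken from the peak edge to the TSS of 45756 curated RefSeq transcripts. Of 10494 peaks, 4 outside the assembled chromosomes were left out of shares, folds and sites, which leaves 10490. Sites were searched as fixed letters on both strands, and longer sites were also counted among their cores. Promoters were those of the RefSeq table (GRCm38.p6), which held 8 of the 10 Notch genes. Scripts used Python 3.11.15, numpy 2.4.6, pysam 0.24.0 and matplotlib 3.10.9 and were tested on simulated data.

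Every Notch gene was named. For the wider pathway, up to 3 genes per role with the highest folds and up to 2 without a peak in list order were named. Some items of these lists and a sequence are not reported here. The genes, lists and searches were chosen with earlier results of these data known, and the grouping by promoter base composition and the window of 1000 bp were added after seeing the data. With a single merged list, no test was run. Alternatives tried were higher limits on the fold, lower ones on the p-value, the peak midpoint, all RefSeq transcripts, other assignment rules, and other forms and windows of the RUNX core.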

Additional observations from a re-analysis of the deposited data

How the results depend on the processing

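No paired analysis was possible because the replicates were merged before peaks were called, and for the same reason no replicate could be left out. Of the alternative values, 28 stayed within 1.5 times the reported count, or equalled the reported median, and 17 did not. With only peaks of fold 8 or more, 3 peaks of 3 genes (Notch2, Jag1 and Hes1) remained, with a median fold of 12.96, 1 with a RUNX core and 2 with their midpoint within 1 kb of the TSS (5 in the report's list), and 20 wider pathway genes had a peak. With only p-values under 1e-20 these values were 3, 3, 12.96, 1, 2 and 24. With all RefSeq transcripts, predicted ones included, the peak past the end of Dll4 was added and the median fold became 5.14. Counting every peak within 50 kb of a TSS gave 15 peaks with a median fold of 5.32, 6 of them with a RUNX core, and added Jag2 to the genes with a peak. With TGTGGT alone 0 peaks held a core. Counting only genes with a promoter in the RefSeq table, an alternative chosen after seeing the data, left 5 genes with a peak. The fall in counts under stricter limits follows from fewer peaks being kept, and the rise within 50 kb from more peaks being admitted.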

Other observations

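The RUNX core was also counted in other windows around the midpoints of the 8 peaks of Notch genes. In the central 100 bp, 2 peaks held it, those of Dll4 and Hes1, beside 21.3% of all peaks. In 500 bp the count stayed at 3, beside 48.4%. In 1000 bp it was 6, beside 64.4%, and the peaks of Dll1, Hey1 and Notch2 were the ones added, so that of the genes with a peak Jag1 alone had no core in that window.

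Of the 3 peaks nearest to Ncoa7 and downstream of Hey2, 2 had the same fold, 8.64, and the same p-value, 2.88e-17. They lay 39884 and 31547 bp from the Hey2 TSS, and the nearer one held a RUNX core and 49.7% G and C bases, less than any of the 8 peaks of Notch genes. Ties of this kind occurred elsewhere in the list. The peaks of Dll1 and Amh, for example, shared a fold of 4.86 and the peak caller's p-value of 3.43e-16.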
